A study of Mus musculus with 4 samples.

Results

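Replication initiation zones on mouse chromosomes 13 and 8 were compared in E14tg2a embryonic stem cells, an established male line. The pair held 5351 of the 55863 zones listed in 2 replicate sets. Chromosome 13 held 1348 zones in set 1 and 1154 in set 2, and chromosome 8 held 1571 and 1278. The 2 chromosomes were chosen from earlier results on the same lists, in which chromosome 13 was highest and chromosome 8 lowest among autosomes in zones strong in both sets and in the correlation of the score tracks (0.541 and 0.435 across 1 kb bins). Every difference between them is therefore given as a description, without a test, and the other 17 autosomes give the range. Ranks count from the highest of the 19 autosomes unless stated otherwise. A strong zone is here one whose score lies at or above the 90th percentile of its own set, which is 59.4 in set 1 and 75.4 in set 2. The score is the authors' own value per zone, and no source used here gives its unit.

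Chromosomes are copied from many start points, which in mammals fire at variable positions within broad initiation zones rather than at fixed sites. DNA polymerase ε synthesises the leading strand, so its use switches from one strand to the other where forks depart from a zone. The assay reads polymerase use from ribonucleotides that a polymerase leaves in DNA, since alkali cleaves the strand there. Zones of high firing efficiency are known to lie mostly in early-replicating chromatin, and late domains are thought to be copied from weaker or more dispersed starts. Neither replication time nor firing efficiency was measured in these lists.

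All cells were E14tg2a with Tet-OsTIR1 at Rosa26 on both alleles and RNaseh2a tagged with mAID and puroR on both alleles. RNaseh2a is a subunit of RNase H2, which removes ribonucleotides from DNA, and the tag lets auxin deplete it. The parent line carried no further change, and the derived line carried Pole1-M630F on both alleles, a mutant polymerase ε that leaves more ribonucleotides. Each line gave 2 replicates, kept for 24 h in doxycycline with auxinole and then for 12 h in doxycycline with IAA, the auxin. Genomic DNA was cleaved with alkali and fragments of 300 to 2000 nt were cut from a gel. The labels name 1 library of each line for set 1 and for set 2, without stating which of them entered each zone list, so parent and mutant were not compared. Whether the replicates were separate cultures is not stated, so differences between the sets may be technical. Read depth per library is unknown from the lists, and no counting error could be given. Positions are those of GRCm39 as listed, on a 1 kb grid. No genome of that build was used here, so no sequence is shown and no gene was placed on a zone.

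Chromosome 13 carried more strong zones per Mb than chromosome 8 in both sets, although chromosome 8 had more zones in all. In set 1, 158 strong zones lay on chromosome 13, or 1.34 per Mb of the 117.6 Mb between the outermost zones. Chromosome 8 had 125, or 0.986 per Mb of 126.8 Mb. In set 2 the numbers were 133 (1.13 per Mb) and 110 (0.867 per Mb). Chromosome 13 exceeded chromosome 8 by 36.3% in set 1 and 30.4% in set 2. The other 17 autosomes ran from 0.976 to 1.30 per Mb in set 1, with a median of 1.16, and from 0.873 to 1.17 in set 2, with a median of 1.02. Chromosome 13 ranked 1 of 19 in set 1 and 2 of 19 in set 2, behind chromosome 1. Chromosome 8 ranked 18 in set 1, just above chromosome 14, and 19 in set 2.

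As a share of zones, strong zones made up 11.7% of chromosome 13 in set 1 and 11.5% in set 2, against 10% of the zones of all chromosomes in each set. On chromosome 8 they made up 7.96% and 8.61%. These shares were the highest and the lowest of the 19 autosomes in both sets. They follow from the choice of the pair and carry no independent weight. At the threshold itself the members differed little. The weakest strong zone of chromosome 13 scored 59.6 in set 1 and 75.8 in set 2, and its strongest zone below the threshold scored 59.2 and 74.95. On chromosome 8 these values were 60.9 and 75.44 inside, and 59.3 and 75.41 outside.

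In set 1, the excess of chromosome 13 and the shortage of chromosome 8 lay in different parts of the score range. Chromosome 13 had 90 of its 158 strong zones between the 90th and 95th percentiles, the highest density of the 19 autosomes there at 0.765 per Mb. Above the 95th percentile chromosome 13 had 68 zones, or 0.578 per Mb, which ranked 10 of 19. Chromosome 8 had 70 zones between the percentiles, 0.552 per Mb and rank 11, and 55 zones above the 95th percentile, 0.434 per Mb and rank 19. In set 2 the ranks of chromosome 13 were 2 between the percentiles and 5 above them, and those of chromosome 8 were 15 and 18. Chromosome 8 was thus short of zones above the 95th percentile in both sets. In set 2 it was also low between the percentiles, at 0.465 per Mb against a median of 0.510 over the other 17 autosomes. The first rank of chromosome 13 in set 1 came from scores just above the threshold. With the 80th percentile in place of the 90th, chromosome 13 ranked 6 in set 1 and 5 in set 2, and chromosome 8 ranked 17 and 15. Ordering zones by width in place of score left chromosome 13 at rank 2 and chromosome 8 at rank 17 in both sets, with a smaller difference of 0.188 per Mb in set 1 and 0.177 in set 2.

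**Figure D1:**
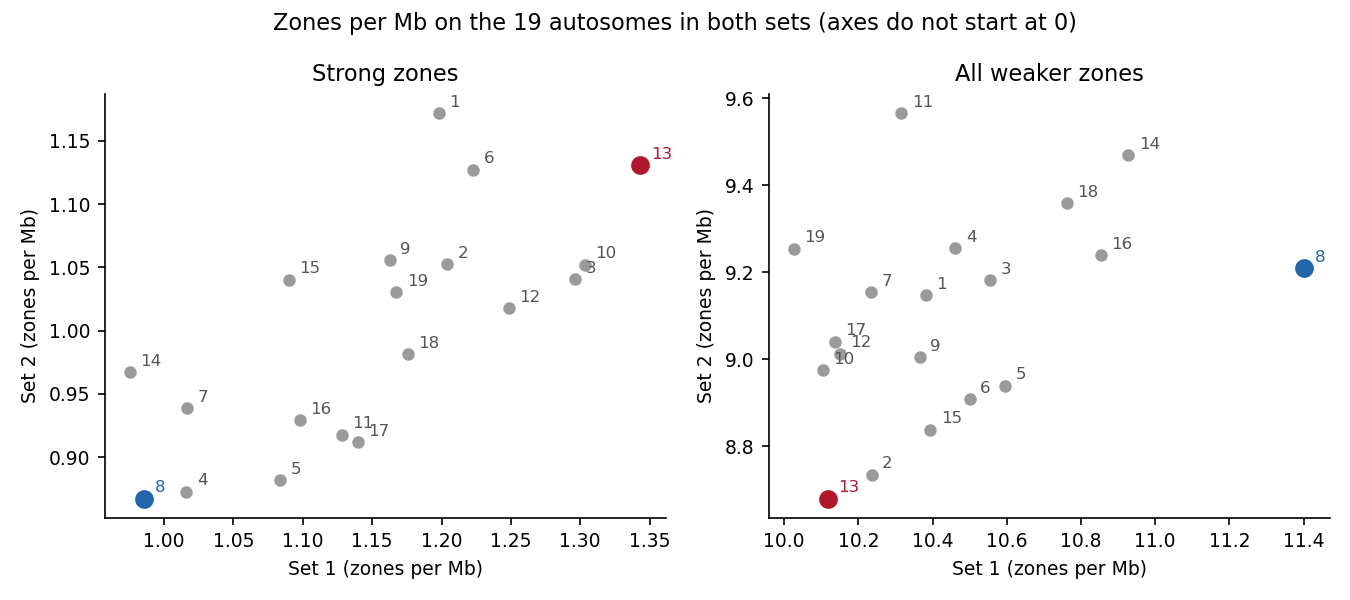
Zones per Mb in set 1 (x axis) and set 2 (y axis) for each of the 19 autosomes, labelled by number, for strong zones (left) and all weaker zones (right); axes do not start at 0. Chromosome 13 (red) lies far to the upper right for strong zones and in the lower left for weaker zones, while chromosome 8 (blue) lies lower left for strong zones and far right for weaker zones.

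Zones below the threshold ran the other way. Chromosome 8 had 12.4 zones per Mb in set 1, the highest of the 19 autosomes, and 10.1 in set 2, where it ranked 10. Chromosome 13 had 11.5 and 9.81 per Mb, with ranks 12 and 18. Counting weaker zones alone, chromosome 8 reached 11.4 per Mb in set 1, above the 10.03 to 10.9 of the other 17 autosomes, and 9.21 in set 2, inside their range of 8.74 to 9.57. Chromosome 13 had 10.1 weaker zones per Mb in set 1, rank 17, and 8.68 in set 2, rank 19. The high number of weaker zones on chromosome 8 was thus a feature of set 1, and the low number on chromosome 13 was seen in both sets.

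When each set was divided into 10 equal classes of score, chromosome 8 was denser than chromosome 13 in 8 of 10 classes in set 1 and in 6 of 10 in set 2. Chromosome 13 was denser in the highest class and in the class next to the lowest, in both sets. In that low class chromosome 13 ranked 1 of 19 in both, with 1.40 zones per Mb in set 1 and 1.22 in set 2, against medians of 1.19 and 1.06 over the other 17 autosomes. Chromosome 13 was also the least dense of the 19 in some classes. These were class 9 in set 1, at 1.05 per Mb, and classes 1 and 6 in set 2, at 0.765 and 0.799. Chromosome 8 was densest of the 19 autosomes in the classes numbered 3 and 8 in set 1, at 1.38 and 1.36 per Mb, and next to densest in class 8 in set 2, at 1.19. In class 4 it ranked 2 in both sets, at 1.39 and 1.14 per Mb. In class 3 of set 2, in contrast to set 1, it was the least dense of all, at 0.844.

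**Figure D2:**
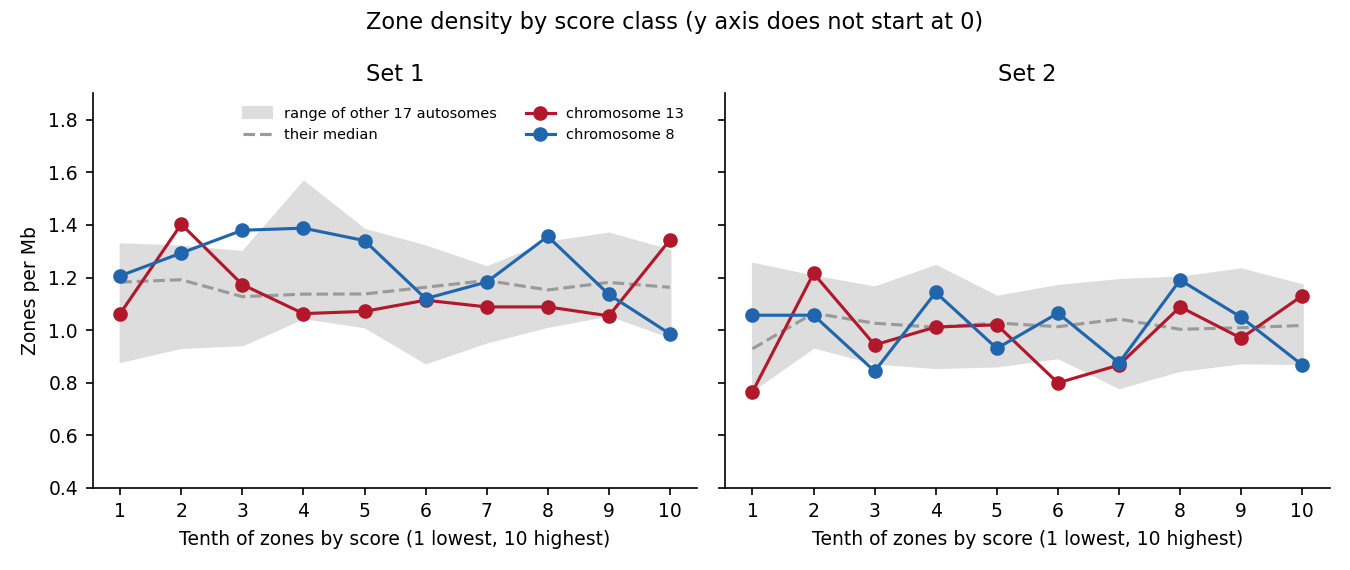
Zones per Mb (y axis, not from 0) in 10 classes of score, from the lowest scores of each set to the highest (x axis), for chromosome 13 (red) and chromosome 8 (blue) in set 1 and set 2; the grey band is the range of the other 17 autosomes and the dashed line their median. The chromosomes part in opposite directions in the highest class of both sets, at 1.34 against 0.986 per Mb in set 1 and 1.13 against 0.867 in set 2.

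Strong and weaker zones balanced in covered length. Zones of any score covered 32.0% of chromosome 13 and 31.4% of chromosome 8 in set 1, and 32.6% and 32.1% in set 2. Both chromosomes lay inside the range of the others in both sets. Strong zones alone covered 11.02% of chromosome 13 and 7.66% of chromosome 8 in set 1, the highest and the lowest of the 19 autosomes. In set 2 they covered 10.2%, rank 3, and 8.19%, rank 18. Weaker zones covered 21.0% and 23.8% in set 1, the lowest and the highest of the 19, and 22.4% and 23.9% in set 2, ranks 17 and 7. Strong zones held 50.2% of the summed score of chromosome 13 in set 1 and 48.4% in set 2, against 38.4% and 38.9% on chromosome 8, which was lowest in both. The length and the summed score in strong zones largely follow their number, so these ranks carry no independent weight.

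Zone widths lay close together. The median zone was 18 kb wide on chromosome 13 and 17 kb on chromosome 8 in set 1, and 23 kb and 22 kb in set 2. Strong zones had a median width of 77 kb on chromosome 13 and 73 kb on chromosome 8 in set 1, but 82 kb and 87.5 kb in set 2. The order of the pair in strong width therefore differed between the sets. In set 1 the strong zones of chromosome 8 equalled the lowest median of the other autosomes, and in set 2 those of chromosome 13 lay near the low end, at rank 17. The widest zone of chromosome 13 spanned 181 kb in set 1 and 196 kb in set 2, and that of chromosome 8 spanned 155 kb in both. The score per kb of strong zones had a median of 1.11 on chromosome 13 and 1.13 on chromosome 8 in set 1. In set 2 it was 1.24 and 1.14, and chromosome 8 was then lowest of the 19. The median score of strong zones was 78.8 on chromosome 13 and 79.1 on chromosome 8 in set 1, the lowest 2 of the 19 autosomes, and 102.1 and 101.3 in set 2, ranks 11 and 13.

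The spacing of strong zones mirrored their density. Midpoints of neighbouring strong zones lay a median of 600.5 kb apart on chromosome 13 in set 1 (interquartile range 335.5 to 946 kb), the closest of the 19 autosomes. On chromosome 8 the median was 846 kb (417 to 1446 kb), the widest of the 19. In set 2 the medians were 669 kb (344 to 997 kb) and 881 kb (423.5 to 1500 kb), ranks 14 and 1 from the widest. The pair differed more at the upper quartile than at the lower one in both sets. On average 7.38 weaker zones stood between one strong zone and the next on chromosome 13 in set 1 and 7.67 in set 2, the lowest of the 19 autosomes. Chromosome 8 had the highest averages, at 11.5 and 10.7. These averages nearly restate the share of zones that are strong and carry no independent weight. Strong zones with no weaker zone between them made up 19.7% of neighbours on chromosome 13 in set 2, the highest of the 19, but 9.55% in set 1, rank 11. At the 80th percentile the spacing difference was nearly gone, at 366 kb on chromosome 13 and 368 kb on chromosome 8 as means of both sets. Over zones of any score, spacing ran the other way, with medians of 78.5 kb on chromosome 13 and 71.5 kb on chromosome 8 in set 1, and 93 kb and 90 kb in set 2.

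Zones strong in both sets were 62.6% denser on chromosome 13 than on chromosome 8, a wider gap than in either set alone. Strong zones of set 1 overlapped strong zones of set 2, by at least 1 bin, at 92 places on chromosome 13 (0.782 per Mb) and 61 on chromosome 8 (0.481 per Mb). The other 17 autosomes ran from 0.485 to 0.715, with a median of 0.601. This value was among those that chose the pair. Of the strong zones of chromosome 13, 91 of 158 in set 1 (57.6%) and 91 of 133 in set 2 (68.4%) met a strong zone of the other set, rank 2 in both. On chromosome 8 it was 61 of 125 (48.8%) and 60 of 110 (54.5%), rank 16 in both. Over all chromosomes the shares were 52.7% in set 1 and 59.8% in set 2. The zones that met are those behind the shared density, so the ranks of these shares follow largely from the choice of the pair. Midpoints of a shared pair differed by a median of 15 kb on chromosome 13 and 17.5 kb on chromosome 8, both inside the range of the others, 11 to 20 kb. With midpoints required to lie within 10 kb, shared pairs fell to 0.272 per Mb on chromosome 13 and 0.181 on chromosome 8.

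Strong zones without a strong partner nearly all met a weaker zone of the other set. On chromosome 13, 64 strong zones of set 1 met only weaker zones and 3 met none, and in set 2 the numbers were 42 and 0. On chromosome 8 they were 64 and 0 in set 1, and 49 and 1 in set 2. Each of the other 17 autosomes had 0 to 4 strong zones that met none, in either set. As a share, strong zones meeting only weaker ones made up 40.5% of chromosome 13 and 51.2% of chromosome 8 in set 1, and 31.6% and 44.5% in set 2. The other 17 autosomes ran from 41.2% to 52.8% in set 1 and from 29.8% to 46.6% in set 2. The strongest partner of such a zone had a median percentile of 81.0 on chromosome 13 and 79.5 on chromosome 8 for set 1, and 80.02 and 78.9 for set 2. The typical partner thus lay in the upper part of its set's scores, below the threshold, on both chromosomes. It did so on the other 17 autosomes too, with values of 76.6 to 83.8 for set 1 and 76.6 to 83.9 for set 2. Strong zones of set 2 on chromosome 8 met more than 1 zone of set 1 in 42.7% of cases, the highest of the 19 autosomes, against 33.1% on chromosome 13. The reverse share, strong zones of set 1 that met several zones of set 2, was 23.2% on chromosome 8 and 21.5% on chromosome 13.

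The strongest shared zones of chromosome 13 ranked higher in the genome than those of chromosome 8. They were chosen on the mean of their score ranks in the 2 sets. Chromosome 13 had more shared zones to draw from, 92 against 61, and the pair was chosen on their density. The higher ranks therefore carry no independent weight, and the other autosomes were not ranked in this way. The best on chromosome 13 ran from 109304000 to 109411000 in set 1, with a score of 153.8 (rank 95 of the set), and from 109306000 to 109422000 in set 2, with a score of 208.9 (rank 27). The next began at 79969000, 83829000, 19038000 and 105009000 in set 1, with scores of 161.3, 163.4, 145.9 and 137.7. Their scores in set 2 were 184.7, 181.5, 199.8 and 167.2. The mean ranks of these 5 zones ran from 61 to 176.5. On chromosome 8 the best shared zone ran from 56614000 to 56725000 in set 1, scoring 177.2 (rank 26), and from 56638000 to 56743000 in set 2, scoring 153.1 (rank 258). The next began at 54484000, 43757000, 66853000 and 68497000 in set 1, with scores of 133.0, 126.2, 104.4 and 116.6. In set 2 they scored 145.6, 137.6, 167.2 and 132.5. Their mean ranks ran from 142 to 493.5, and all 5 lay between 40.6 and 65.4 Mb from the first zone. On chromosome 13 the 5 lay from 15.9 to 106.2 Mb.

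Single zones of extreme score occurred on both chromosomes. The highest score of chromosome 13 in set 1 was 189.5 (rank 9 of the set), from 15500000 to 15650000, and the zone it met in set 2, from 15513000 to 15645000, scored 125.5 (rank 709). In set 2 the highest was 212.3 (rank 21), from 26264000 to 26356000, over a set 1 zone of nearly the same limits that scored 90.2 (rank 1154). On chromosome 8 the highest score of set 2 was 226.3 (rank 8), from 74578000 to 74722000. It met 2 zones of set 1, a 74 kb zone scoring 92.7 and a 16 kb zone scoring 2.02. The widest zone of chromosome 13 in set 1, from 113806000 to 113986000, met 4 zones of set 2, of which 1 was strong. In each of these 4 cases the other set had a strong zone at the place, further down its ranking. The zones were chosen as extremes of their own set, so a lower rank in the other set follows largely from the choice. The widest zone of chromosome 8 in set 1, from 66853000 to 67007000, went the other way. It had rank 709 and met a set 2 zone of rank 168. The remaining extremes by score or width met a strong zone further down the other ranking.

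Along the chromosomes, the difference lay towards both ends and not in the middle. Mouse chromosomes have their centromere at one end, and the numbering starts there. In set 1, the centromere-proximal part, 1 of 3 equal parts of the span, held 1.35 strong zones per Mb on chromosome 13 and 0.852 on chromosome 8. The middle part held 1.28 and 1.18, and the distal part 1.40 and 0.923. In set 2 the proximal part held 1.28 and 0.899 and the distal part 1.33 and 0.757. The middle part of set 2 ran the other way, with 0.791 on chromosome 13, rank 18 of 19, and 0.946 on chromosome 8. The distal part of chromosome 13 ranked 1 in both sets and lay above all other 17 autosomes, which reached 1.37 in set 1 and 1.17 in set 2. Chromosome 8 ranked 18 and 17 in the proximal part and 15 and 13 in the distal part, within the range of the others in each.

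**Figure D3:**
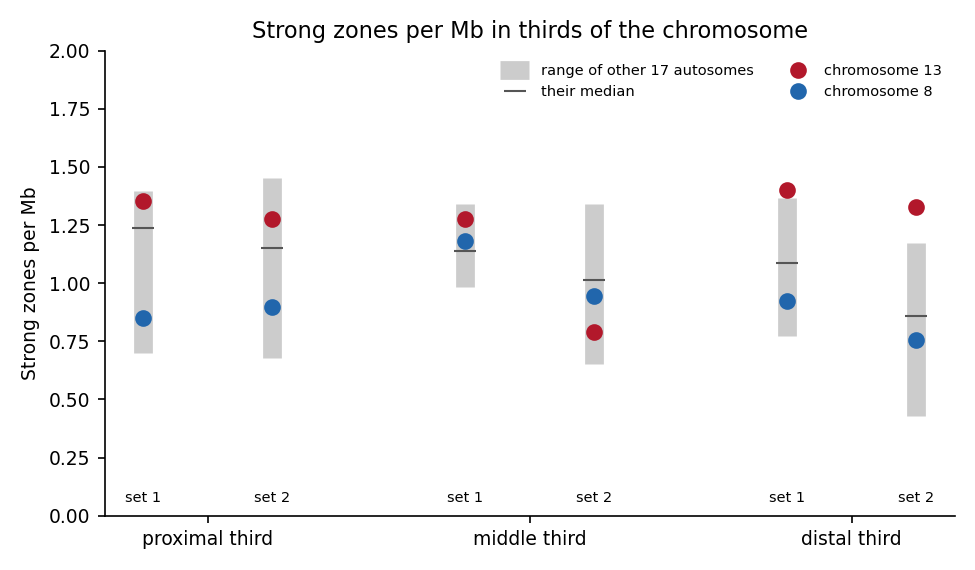
Strong zones per Mb (y axis) in 3 equal parts of each chromosome's zone-bearing length (x axis), in set 1 and set 2, for chromosome 13 (red) and chromosome 8 (blue); grey bars are the range of the other 17 autosomes and dashes their median. The pair lies apart in the proximal and distal parts and close together in the middle, where in set 2 chromosome 13 (0.791) lies below chromosome 8 (0.946).

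In windows of 10 Mb from the first zone, chromosome 13 had 10 to 16 strong zones in each of its 11 windows in set 1, with a median of 13. Chromosome 8 had 5 to 13 in its 12 windows, with a median of 11. In set 2 the ranges were 4 to 16, with a median of 11, and 4 to 12, with a median of 8.5. The windows of the 2 chromosomes overlapped widely, and the other 17 autosomes ran from 3 to 21 in set 1 and from 2 to 19 in set 2. Summed over both sets, the fullest windows of chromosome 13 were those from 13107000 to 23106000 and from 23107000 to 33106000, each with 16 strong zones in set 1 and 15 in set 2. By the same sum, its poorest was the window from 63107000 to 73106000, with 10 and 4. On chromosome 8 the fullest window by this sum ran from 23118000 to 33117000, with 12 strong zones in each set, and the poorest from 13118000 to 23117000, with 5 and 4. Leaving out each of the 23 windows in turn kept chromosome 13 ahead by 0.270 to 0.360 strong zones per Mb, as a mean of both sets. The same held for zones strong in both sets, by 0.272 to 0.355 per Mb. The pair was chosen with these densities known. Both ranges describe how the difference was spread along the chromosomes and carry no independent weight.

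**Figure D4:**
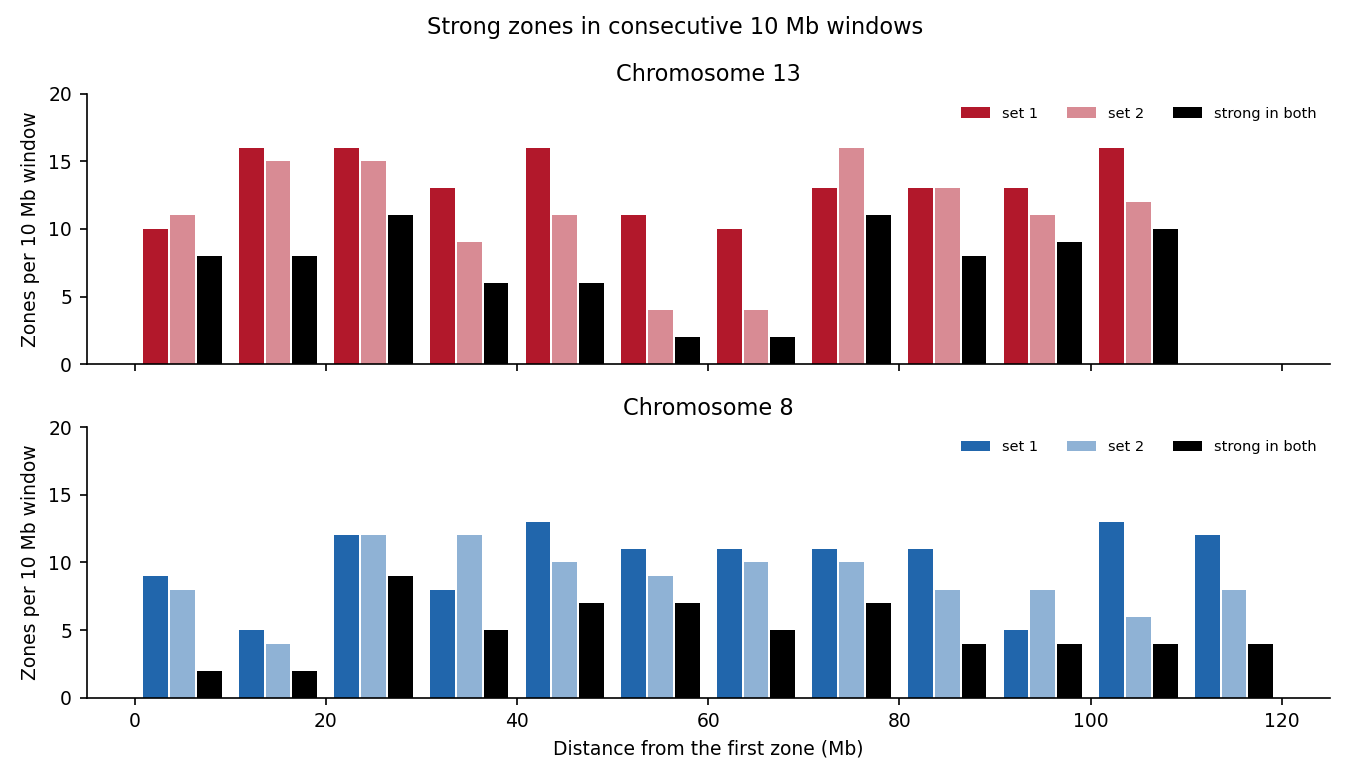
Number of strong zones (y axis) in consecutive 10 Mb windows by distance from the first zone (x axis) on chromosome 13 and chromosome 8, in set 1 (dark), set 2 (pale) and strong in both (black); the last 7.62 and 6.82 Mb fill no window and are not drawn. Chromosome 13 has 7 windows with 7 or more shared strong zones and chromosome 8 has 4. Each chromosome has 2 windows with only 2. The pair was chosen on the density of these shared zones.

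The longest stretches without a zone strong in both sets were of similar length on the pair. On chromosome 13 they ran from 60763000 to 68703000 (7.94 Mb) and from 53485000 to 60707000 (7.22 Mb), side by side around a single shared zone. On chromosome 8 they ran from 15124000 to 22893000 (7.77 Mb) and from 98163000 to 105833000 (7.67 Mb). None was empty, since each held 83 to 97 zones of set 1 and 74 to 84 of set 2. The 2 stretches of chromosome 13 held 5 and 9 strong zones of set 1, but 1 and 2 of set 2. The first stretch of chromosome 8 was poor in both sets, with 2 strong zones in set 1 and 1 in set 2, and the second held 5 and 1. The upper quartile of the distance between shared strong zones was 1554 kb on chromosome 13, the lowest of the 19 autosomes, and 2699 kb on chromosome 8, next to the highest. The medians were 906 kb and 1294 kb. These distances largely follow the density of shared strong zones, on which the pair was chosen, and carry no independent weight.

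How far the sets agreed depended on the size of the window and on the quantity. Summed score per 1 Mb window, with each zone counted at its midpoint, gave a Spearman correlation between the sets of 0.494 over the 117 windows of chromosome 13 and 0.437 over the 126 of chromosome 8. Both were low among autosomes, at ranks 16 and 18, where the others ran from 0.418 to 0.670. In 5 Mb windows the values were 0.607 (rank 10, 23 windows) and 0.217 (rank 19, 25 windows). In 10 Mb windows they were 0.945 (rank 1, 11 windows) and 0.182 (rank 19, 12 windows). Windows are few at that size, and their placement mattered. Moved by 5 Mb, the 10 Mb windows gave 0.691 (rank 8) for chromosome 13 and -0.0280 (rank 18) for chromosome 8. Windows of a chromosome share the 2 lists and their neighbours, so these correlations are descriptions and carry no p-value.

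The number of strong zones per window agreed at 0.426 on chromosome 13 and 0.329 on chromosome 8 in 1 Mb windows, at 0.434 and 0.431 in 5 Mb windows, and at 0.594 and 0.176 in 10 Mb windows. Covered length per window gave no steady order, with 0.255 and 0.292 at 1 Mb, 0.0465 and 0.436 at 5 Mb, and 0.445 and 0.291 at 10 Mb. The number of zones of any score gave no steady order either, with 0.228 on chromosome 13 and 0.187 on chromosome 8 at 1 Mb, 0.355 and 0.421 at 5 Mb, and 0.473 and 0.290 at 10 Mb. Chromosome 8 thus had the lowest summed-score agreement of the autosomes in 5 Mb and 10 Mb windows counted from the first zone. Chromosome 13 had the highest only in the 10 Mb windows so placed. Each set had at least 1 strong zone, overlapping or not, in 67.5% of the 1 Mb windows of chromosome 13, rank 2, and in 50.8% of those of chromosome 8, rank 16. Windows with a strong zone in neither set made up 12.0% and 16.7%. Of the bins covered in either set, 34.8% were covered in both on chromosome 13, rank 5, and 31.0% on chromosome 8, the lowest of the 19. For strong zones alone these shares were 33.7%, rank 2, and 25.4%, rank 17. These shares of windows and bins lie close to the values that chose the pair, and their ranks carry no independent weight.

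**Figure D5:**
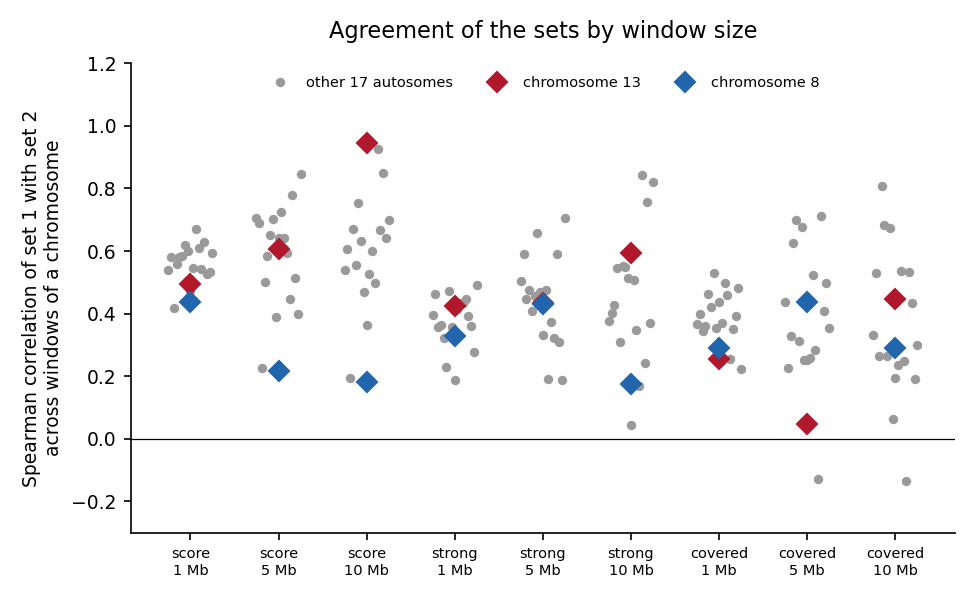
Spearman correlation of set 1 with set 2 (y axis) across windows of 1, 5 and 10 Mb for summed score, number of strong zones and covered length (x axis), for chromosome 13 (red), chromosome 8 (blue) and the other 17 autosomes (grey). For summed score the pair is close at 1 Mb (0.494 and 0.437) and far apart at 10 Mb (0.945 and 0.182), while covered length shows no steady order.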

How the data were processed

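The 2 zone lists, one per replicate set, hold the first and last position and the score of each zone as the authors deposited them, without a header. Bowtie2 and GRCm39 are named, per the submitters' processing notes. No source used here gives the method of the zone call, the unit of the score or the libraries behind each list. Positions are multiples of 1 kb, and the last was read as the last bin. The span of a chromosome joined the outermost zones of both sets. Windows were full windows from the first zone. The percentile was taken over all zones of a set. No test was made, since 2 lists give no replicates within a set and the chromosomes, measures and lists were chosen with earlier results of these data known. Named regions were the 5 shared strong zones with the best mean rank, the 2 longest stretches without one, the 10 Mb windows with the most and fewest strong zones summed over both sets and the zones next to the threshold; the zones of extreme score or width were added after their values were seen. Genes were not placed, as the only gene table used is of another build, GRCm38.p6. The functions were checked on simulated lists. Alternatives changed the percentile, the overlap rule, the span, the windows, the correlation and how zone ends were read. Depth is unknown. Scripts ran in Python 3.11.15 with NumPy 2.4.6. SciPy 1.17.1 gave the correlations, and Matplotlib 3.10.9 drew the figures.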

Additional observations from a re-analysis of the deposited data

How the results depend on the processing

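Differences are chromosome 13 minus chromosome 8, as means of both sets, and 63 alternatives were run, of which 6 were chosen after the results were seen (score per kb and the 10 Mb window counts in each set alone, and windows of 5 and 10 Mb moved along). For values per set, a move was judged against the SD between the sets, otherwise against the SD over the other 17 autosomes. In all, 40 stayed within that spread, 18 moved beyond it in the same direction and 5 reversed. With a set left out, a value cannot lie beyond the SD between the sets, so those alternatives could only stay or reverse. Zone width had an SD of 0 between the sets, so any change in it counted as a move. The tally is therefore no measure of stability. Strong zones per Mb (0.311) gave 0.230 at the 80th percentile, 0.147 at the 95th and 0.182 for the widest 10% of zones. Their spacing (-228.6 kb) gave -2.63 and -437 kb at these percentiles. Their width (-0.75 kb) reversed to 2.5 and 2 kb, and ran from -5.5 to 4 kb with a set left out. The share met by a strong zone (11.3 points) gave 16.7 at the 95th percentile and 2.502 by midpoints within 10 kb. Shared strong zones per Mb (0.301) gave 0.168 and 0.0907. Coverage (0.532 points) gave 2.69 for strong zones only and, with plain interval ends, 0.591, where zone width gave 0.75 kb. Score per kb (0.0426) ran from -0.0166 to 0.102 with a set left out. Window agreement (0.0571) reversed to -0.0368 for covered length. It gave 0.119 with scores spread over bins, 0.163 with windows moved by 0.5 Mb, 0.390 in 5 Mb windows (0.511 moved by 2.5 Mb) and 0.764 in 10 Mb windows (0.719 moved by 5 Mb). Fewer zones pass the 95th percentile by construction; the cause of the other moves was not tested. No paired analysis was possible because neither list separates the parent from the mutant library. Depth, and so counting error, is unknown, and mappability and assembly gaps were not analysed here.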

Other observations

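Across the 19 autosomes, the sets ordered chromosomes alike in strong zones per Mb, with a Spearman correlation of 0.746, and in the percent of the span covered by strong zones, with 0.767. Without chromosomes 13 and 8 these were 0.676 and 0.711 over 17 autosomes. The sets agreed less on zones of any score per Mb, at 0.291, and on the median width of strong zones, at 0.483. Leaving out the pair gave 0.321 and 0.606, so the lower value for width depended on the pair. Within a set, strong zones per Mb and zones of any score per Mb were weakly opposed, at -0.247 in set 1 and -0.186 in set 2, and without the pair at -0.0858 and -0.0784. The points share their lists and differ in length, so these correlations are descriptions.

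In the middle of chromosome 13 the sets differed in strong zones. In the windows from 53107000 to 63106000 and from 63107000 to 73106000, set 1 had 11 and 10 strong zones and set 2 had 4 and 4, of which 2 in each window were shared. Zones of any score numbered 111 and 124 in set 1 and 101 and 110 in set 2, and the window with 124 and 110 had the most of all 11 windows in both sets. Summed scores were 2170 and 2103 in set 1 and 2041 and 2224 in set 2, the lowest 2 of the 11 windows in each set. In the 2 stretches there without a shared strong zone, 13 of the 14 strong zones of set 1 met a zone of set 2. The zone from 66580000 to 66646000, with a score of 84.5, met none. Meeting some zone was usual, since only 3 of the 158 strong zones of set 1 on the whole of chromosome 13 met none. Each of the other autosomes had 0 to 4 such zones in set 1. The strongest set 2 partners of the 13 zones scored from 0.263 to 67.2, all below the threshold of 75.4.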
